A study of Mus musculus with 3 samples.

Results

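The genes described here are the proteasome subunit genes of mouse peripheral blood mononuclear cells (PBMCs). They were taken as every symbol of the deposited annotation that starts with Psma, Psmb, Psmc or Psmd followed by a digit, without Psmb8 and Psmb9, which gave 38 of 32285 genes. Of the 38, 31 encode core subunits of the constitutive proteasome, with 7 α-ring subunits (Psma1 to Psma7), 7 β-ring subunits (Psmb1 to Psmb7), 6 ATPases (Psmc1 to Psmc6) and 11 non-ATPase subunits of the regulatory particle (Psmd genes). The other 7 are not constitutive subunits, although the symbol rule takes them in. Psmb10 is an inducible catalytic subunit of the immunoproteasome, Psmb11 and Psma8 are the subunits of the thymus and testis, Psmd5, Psmd9 and Psmd10 are chaperones that assemble the regulatory particle, and Psmc3ip is a meiotic recombination factor.

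The proteasome degrades proteins that carry ubiquitin chains. Its barrel, the 20S core particle, is built of α-rings that form the gate and β-rings that hold the proteolytic sites, with Psmb6 (β1) cutting after acidic residues, Psmb7 (β2) after basic residues and Psmb5 (β5) after hydrophobic residues. The 19S regulatory particle binds the ubiquitin chain, removes it, and unfolds the substrate with a ring of ATPases. In cells of the immune system the catalytic subunits are exchanged for inducible ones, Psmb9 for Psmb6, Psmb10 for Psmb7 and Psmb8 for Psmb5, and this immunoproteasome makes many of the peptides shown on MHC class I molecules.

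PBMCs were measured by droplet-based 3′ single-cell RNA sequencing in 3 libraries, 1 each from young mice (8 weeks old, with the treatment given as none), aged mice (16 months old, likewise none) and aged-GA mice (16 months old, given glycyrrhizic acid, a saponin of licorice root, for 1 month). The study used female C57BL/6 mice and describes PBS injections for its control mice. It names several mice in each group, and how their cells were combined into 1 library per group is not given in the sources used here. With 1 library per group, differences between young, aged and aged-GA mice have no replicate check and no p-value, and their intervals (95%, exact) cover counting error only. Differences between B, CD4 T, CD8 T, NK and erythroid cells were tested over the 3 libraries, and those of monocytes and neutrophils over the aged and aged-GA libraries, since the young library held few of these cells.

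Filtering left 8851 young, 10238 aged and 12648 aged-GA cells, with medians of 4671, 3810.5 and 4752 unique molecular identifiers (UMIs) per cell, and pairs of libraries shared 50 to 62 barcodes. Cells were gated by how many distinct markers of a class they held. This gave 2243, 4019 and 5260 B cells in young, aged and aged-GA mice, 1017, 542 and 749 CD4 T cells, 1771, 768 and 1529 CD8 T cells, 301, 220 and 239 NK cells, and 343, 215 and 985 erythroid cells. Monocytes numbered 46, 1045 and 276 and neutrophils 13, 750 and 469, so that neither class could be compared with the others in young mice. Cells past the limits of more than 1 class (567, 1614 and 1873) were left out. The libraries differed in RNA that the class does not make: the 8 erythroid markers summed to 3043, 22007 and 12760 CPM (UMI counts scaled to the same total in each class and library) in young, aged and aged-GA B cells and the 9 neutrophil markers to 8, 266 and 186 CPM. The 11 genes of dissociation stress went the other way, with 6615, 3632 and 4663 CPM in B cells. The part of these differences in the values that follow was not tested, except where a value is given without the genes named.

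The promoters of 3 subunits on which the results turn follow here, each from 250 bases before to 50 bases after the RefSeq start (GRCm38.p6). Psmb5 is shown because it had the largest aged-over-young ratio in CD8 T cells, and Psma7 because it had the largest rise in monocytes. Psmb6 is shown because it fell in neutrophils in the class test, where its inducible partner was called higher. Capitals mark the core of the antioxidant response element (TGACNNNGC, the binding motif of the NRF family of factors that drive proteasome genes under stress), the CCAAT box and the GC box (GGGCGG), read on either strand, with CCGCCC the GC box of the opposite strand.
Psmb5, chr14:54617946-54618245, minus strand: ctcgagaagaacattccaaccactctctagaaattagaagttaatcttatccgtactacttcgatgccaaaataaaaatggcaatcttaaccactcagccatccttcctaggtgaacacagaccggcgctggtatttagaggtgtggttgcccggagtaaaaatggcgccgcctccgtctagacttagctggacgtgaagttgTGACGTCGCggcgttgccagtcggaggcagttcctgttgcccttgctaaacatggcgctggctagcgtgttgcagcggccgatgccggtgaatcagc
Psmb6, chr11:70525107-70525406, plus strand: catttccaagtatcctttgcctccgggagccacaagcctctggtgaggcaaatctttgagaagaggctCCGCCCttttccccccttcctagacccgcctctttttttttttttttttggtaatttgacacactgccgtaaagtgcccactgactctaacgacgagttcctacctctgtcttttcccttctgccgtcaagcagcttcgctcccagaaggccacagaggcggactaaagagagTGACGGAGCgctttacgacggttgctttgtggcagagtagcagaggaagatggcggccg
Psma7, chr2:180042415-180042714, minus strand: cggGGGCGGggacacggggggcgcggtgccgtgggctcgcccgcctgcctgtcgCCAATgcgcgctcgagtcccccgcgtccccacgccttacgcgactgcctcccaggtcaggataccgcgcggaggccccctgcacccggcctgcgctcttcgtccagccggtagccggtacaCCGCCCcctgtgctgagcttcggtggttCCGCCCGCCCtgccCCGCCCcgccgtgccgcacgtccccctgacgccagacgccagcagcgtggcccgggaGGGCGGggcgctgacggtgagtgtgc

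The antioxidant response element core began 47 bases before the start of Psmb5 and 9 bases before that of Psmb6. Over all members, 31 had a promoter in the RefSeq table, in 33 windows, and 5 of these windows held the core (15.2%, those of Psmb5, Psmb6, Psmc6, Psmd12 and Psmd9), against 12.4% of 32851 windows of all genes. The CCAAT box was in 39.4% of the members' windows and 37.4% of all windows, so that for both motifs the members' share lay near that of all windows. The GC box was in 54.5% against 35.7%, and CCGGAAG, the core bound by ETS factors, in 36.4% (12 windows, among them those of Psmc1, Psmc2, Psmd2, Psmd11 and Psmd13) against 8.86%. AGATAA, to which GATA factors bind, was in 2 windows (6.06% against 11.2%). Psma7 had a CCAAT box and 6 GC boxes, of which one pair overlaps, in a window of 77.0% GC. Psmd7, Psmb1, Psma8, Psmb7, Psmd3, Psmc3 and Psmb2 had no entry in the table. The 38 genes lie on 16 chromosomes, and only Psmd1 and Psma2 overlap another protein-coding gene on the same strand.

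Core subunit transcripts made up a similar fraction of all UMIs in B and T cells, more in NK cells and classical monocytes, and less in neutrophils and erythroid cells. The order of B, T and NK cells and monocytes changed with the total used, as given below. The 31 core subunits summed to 3105, 3035 and 3049 CPM in young, aged and aged-GA B cells, to 3078, 3729 and 3644 CPM in CD4 T cells and to 2966, 3337 and 3230 CPM in CD8 T cells. NK cells stood higher, at 4762, 3965 and 4117 CPM, and on this total did not overlap the B or T cells. Classical monocytes had 4953 and 4653 CPM in aged and aged-GA mice, nonclassical monocytes 3766 and 3586 CPM, and neutrophils 1285 and 1471 CPM. Plasma cells, which secrete antibody, had 4736 and 3967 CPM from only 33 and 32 cells, and basophils 2096 and 1944 CPM from 104 and 25 cells. Erythroid cells had 98.2, 129 and 127 CPM, where haemoglobin transcripts fill most of the library. With the haemoglobin, mitochondrial, ribosomal protein and immunoglobulin genes left out of the total, the erythroid sums were 1536, 1968 and 2010 CPM and the B-cell sums 5106, 4771 and 4805 CPM. Neutrophil markers took 249646 and 198240 CPM of the aged and aged-GA neutrophils. With those markers left out of the total as well, the neutrophil sums were 1905 and 1999 CPM, still below the 4773 and 4806 CPM of B cells. On this total NK cells had 6122, 5143 and 5242 CPM in young, aged and aged-GA mice. CD4 T cells had 5536, 5744 and 5697 CPM, and CD8 T cells 5791, 5730 and 5744 CPM. NK cells thus lay above B cells in each library, but below both T-cell classes in the aged and aged-GA libraries. B cells, with 5106 CPM in young mice, lay below all T-cell libraries. Monocytes had 6068 and 5257 CPM in aged and aged-GA mice.

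**Figure D1:**
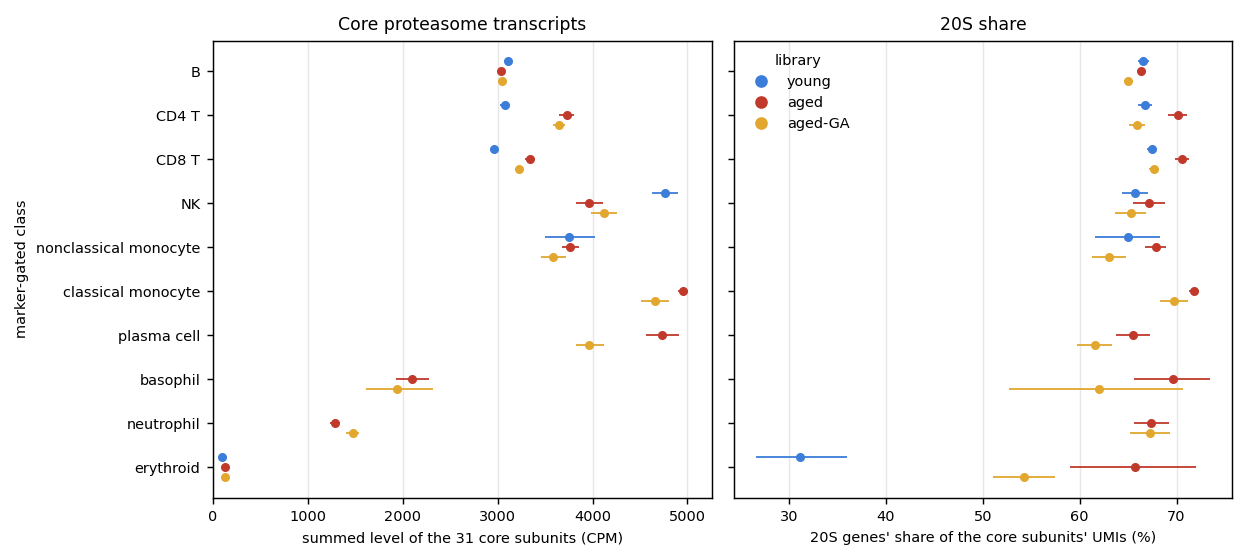
Summed level of the 31 core subunits (left, CPM) and the share of their UMIs that comes from the 20S genes (right, %) in each marker-gated class with at least 20 cells in the library. Points are libraries and bars 95% exact counting intervals; neutrophils sit at 1285 and 1471 CPM and the lymphocytes and monocytes between 2966 and 4953 CPM, while the 20S share stays between 61.6% and 71.8% in every point except those of young and aged-GA erythroid cells.

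The subunits of one particle are needed in fixed numbers, but their transcripts were far from even. Because 3′ libraries count 1 tag per molecule, levels were compared between genes as CPM and not divided by length. The same 5 genes led in B, CD4 T and CD8 T cells in 3 of 3 libraries, namely Psmb1, Psma3, Psma2, Psma7 and Psmb3, all of the 20S particle. In B cells these 5 held 36.1% of the core UMIs, and the highest gene was 9.03 times the lowest. Psmb1 led with 326, 265 and 286 CPM in young, aged and aged-GA B cells, and Psmd1, the large scaffold subunit of the regulatory particle, was lowest in these cells on the mean of the libraries, with 32.0, 32.7 and 32.5 CPM. The same 5 led in both neutrophil libraries, in 2 of 3 NK libraries and in 1 of 2 monocyte libraries. Plasma cells differed, since Psmd8, a subunit of the lid of the regulatory particle, led there with 475 and 469 CPM in the aged and aged-GA libraries, against 134 and 139 CPM in B cells. The 20S genes held 66.6%, 66.3% and 65.0% of the core UMIs in young, aged and aged-GA B cells. Psmb11 had 7 UMIs in all classed cells together and Psma8 had 9, and Psmc3ip 342, so that the thymic, testicular and meiotic genes were at or near the limit of detection.

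NK cells, which kill virus-infected and transformed cells, had 10 members called higher than the mean of B, CD4 T, CD8 T and erythroid cells. Monocytes were not in this fit, and in the aged and aged-GA libraries their mean CPM of Psmb5, Psmb10 and Psmd13 was above that of NK cells. The question was which classes differ in these genes, and each class was compared with the mean of the others on UMI sums per library (5 classes with at least 50 cells in each library, 3 libraries, library as a block, edgeR quasi-likelihood test with Benjamini-Hochberg adjustment, 36 members among 10899 genes tested). In NK cells 10 of 36 members rose and none fell, where 17% of all genes rose and 12.7% fell. The median log2 change was 0.21 over the members and 0.04 over all genes. None of the 7 α-ring genes was among the 10, against 3 of 7 β-ring genes (Psmb3, Psmb5 and Psmb6), 2 of 6 ATPases (Psmc3 and Psmc4), 4 of 11 non-ATPase genes (Psmd1, Psmd7, Psmd13 and Psmd14) and Psmb10.

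Psmc3, the ATPase also known as Rpt5, had 126, 138 and 122 CPM in young, aged and aged-GA NK cells against 58.1, 63.6 and 66.5 CPM in CD8 T cells. Every NK library lay above every CD8 T library. Its log2 change in NK cells was 0.78 (SE 0.16, adjusted p = 0.0012, edgeR quasi-likelihood test), and against CD8 T cells alone, in a fit without the erythroid class, it was 0.64 (SE 0.10, adjusted p = 0.00023). Psmd1 had 53.5, 59.5 and 52.0 CPM in NK cells and 23.8, 34.1 and 34.6 CPM in CD8 T cells, a log2 change of 0.84 in NK cells (SE 0.20, adjusted p = 0.0046). Psmd13, a lid subunit, had 96.0, 59.5 and 91.6 CPM in NK cells, and the aged library was nearer to the CD8 T cells, at 45.6, 48.6 and 52.6 CPM. Against CD8 T cells Psmb1 fell by 0.37 on the log2 scale (adjusted p = 0.0029), and 3 members rose and 1 fell in that pair, where 17.5% of all genes rose and 17.2% fell, so that the share of the members was below that of all genes. The NK count was 8 without the young library, 4 without the aged and 5 without the aged-GA library, and Psmd7 was at -0.056 when the erythroid class was left out.

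In B cells more members fell than rose, but how many were called depended on the classes set against them. With the 5 classes, 2 members rose and 4 fell in B cells, where 25.9% of all genes rose and 16.3% fell. The members that fell were Psmd4 (log2 change -1.02), the ubiquitin receptor of the regulatory particle, Psmd2 (-0.49), Psma2 (-0.48) and Psma4 (-0.33). Those that rose were Psmd7 (0.52) and the chaperone Psmd9 (0.32). The mean set against B cells includes erythroid cells, where Psmd4 was called higher, as given below. In CPM, Psmd4 was at 110 and 88.7 in young and aged B cells. It was at 117 and 86.5 CPM in CD8 T cells with Ccl5 and at 116 and 83.2 CPM in those without it. In a fit without the erythroid class, added after the data were seen, 17 members fell and 2 rose in B cells, where 24.9% of all genes fell and 29.4% rose. Psmb3 fell by 0.51, Psmb5 by 0.44, Psmb10 by 0.44, Psmd13 by 0.43 and Psmc3 by 0.43 on the log2 scale in that fit, and Psmd7 was at -0.029. The count in B cells with 5 classes was 13 without the young library, 1 without the aged and 0 without the aged-GA library, and 11 by the DESeq2 Wald test.

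In CD4 T cells 2 members rose and none fell, where 14.9% of all genes rose and 9.94% fell, and in CD8 T cells 4 rose and 1 fell, where 17.3% rose and 11.7% fell, so that fewer members than background were called in either class. Those that rose in CD4 T cells were Psma6 (log2 change 0.45) and Psmd7 (0.46), and in CD8 T cells Psmd7 (0.69), Psmb10 (0.53), Psmb1 (0.44) and Psmb5 (0.40), while Psmd4 fell by 0.82. Psmd7 in CD4 T cells was at -0.086 without the erythroid class. The mean set against CD8 T cells also includes erythroid cells, where Psmd4 was called higher. Psmd4 in CD8 T cells was at 0.11 with at least 500 genes per cell. The count was 4 without the young and 0 without the aged or the aged-GA library in CD4 T cells, and 12, 1 and 0 in CD8 T cells.

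Monocytes and neutrophils, both myeloid cells, differed in opposite directions from the mean of the other classes. They were compared in the aged and aged-GA libraries, with 6 classes (B, CD4 T, CD8 T and NK cells, monocytes and neutrophils), in a fit chosen after the data were seen, in which 36 members were tested among 11288 genes. In monocytes 24 members rose and 1 fell, where 34.9% of all genes rose and 23.7% fell, and in neutrophils 29 fell and none rose, where 36.8% of all genes fell and 30.9% rose. The median log2 change of the members was 0.39 in monocytes and -0.80 in neutrophils, against 0.08 and -0.30 over all genes. Between the pair, 32 members rose in monocytes over neutrophils and none fell (34.9% and 27.5% of all genes), so that no tested member fell in monocytes over neutrophils. No library could be left out of these fits, since 1 library would leave no degrees of freedom. By core sum, monocytes were not the highest class on every total. Without the 4 gene groups and the neutrophil markers, aged-GA monocytes had 5257 CPM, against 5697 CPM in CD4 T and 5744 CPM in CD8 T cells.

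By subcomplex, in neutrophils 5 of 7 α-ring genes fell, 6 of 7 β-ring genes, 6 of 6 ATPases, 9 of 11 non-ATPase genes, 2 of 3 chaperones and Psmb10. Psma5, an α-ring subunit, had 170 and 105 CPM in aged and aged-GA monocytes, 84.6 and 73.4 CPM in B cells and 21.7 and 22.6 CPM in neutrophils. Its neutrophil libraries were the lowest of the 6 classes, and its log2 change there was -1.49. Psmd7, the partner of the deubiquitinase Psmd14, had 8.70 and 13.8 CPM in neutrophils against 62.4 and 64.3 CPM in B cells (log2 change -1.79), Psmc5 10.1 and 15.3 against 56.9 and 64.4 CPM (-1.72), and Psmd3 11.1 and 7.28 against 44.9 and 46.3 CPM (-1.63). A few members did not pass the test in neutrophils. Psmd4 had 63.8 and 79.3 CPM there (log2 change 0.04, SE 0.12, adjusted p = 0.77, edgeR quasi-likelihood test), Psmb7 38.2 and 42.2 CPM (-0.04, SE 0.15), and Psmd13 41.6 and 40.8 CPM (0.24, SE 0.15). Psma1, Psma6, Psmd10 and Psmc3ip were not called either. These log2 changes are on the scaling of the test. On mean CPM, neutrophils were still lowest for Psmd4 (71.6 against 131 in NK cells), Psmb7 (40.2 against 89.6 in monocytes) and Psmd13 (41.2 against 76.9 in monocytes). The 9 neutrophil markers held 249646 and 198240 CPM in these cells and the stress genes 13352 and 17139 CPM, against 3632 and 4663 CPM in B cells; the part of either in these changes was not tested beyond the sums without the markers given above.

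In monocytes the largest rise was that of Psma7, an α-ring subunit. Psma7 had 584 and 464 CPM in aged and aged-GA monocytes, against 173 and 160 CPM in B cells and 220 and 218 CPM in NK cells. Both monocyte libraries stood far above all others, with a log2 change of 1.43 (SE 0.08, adjusted p = 5.6e-16, edgeR quasi-likelihood test). Psmd8 had 274 and 219 CPM (log2 change 0.99), Psma4 174 and 160 CPM (0.94), Psma5 170 and 105 CPM (0.89) and Psma1 156 and 151 CPM (0.78). Of the groups, 5 of 7 α-ring, 6 of 7 β-ring, 4 of 6 ATPase and 8 of 11 non-ATPase genes rose. The one member that fell was Psmc3ip, with 0.721 and 3.37 CPM. Against B cells alone, 23 members rose and 1 fell in monocytes (33.3% and 34.9% of all genes).

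**Figure D2:**
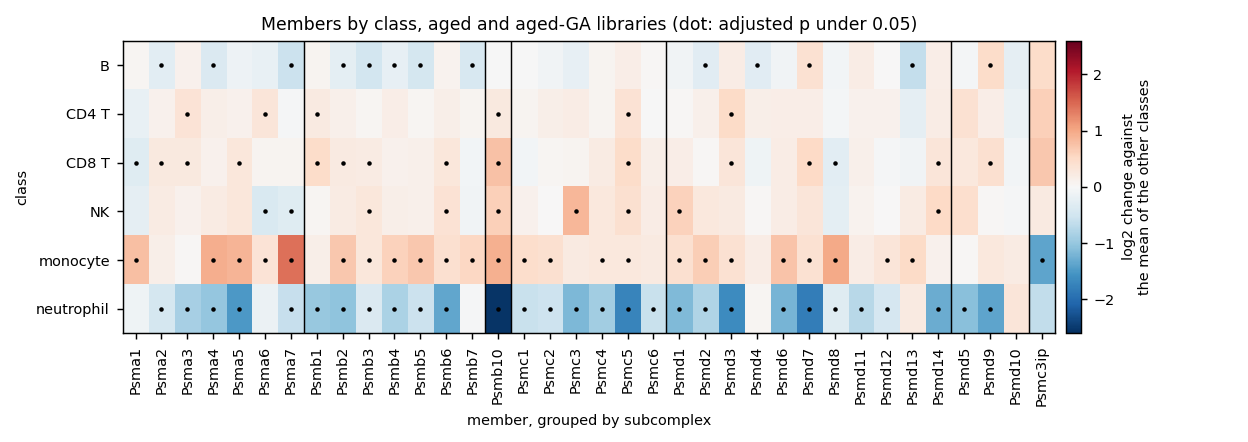
Log2 change of the 36 tested members in each of 6 classes against the mean of the other classes, in the aged and aged-GA libraries, with members on the horizontal axis grouped by subcomplex (vertical lines) and a dot where the adjusted p of the edgeR quasi-likelihood test is under 0.05. The monocyte row is red in 24 dotted members and the neutrophil row blue in 29, with Psmb10 the deepest at -2.55.

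Psmb10 had 250, 202 and 213 CPM in young, aged and aged-GA monocytes, 219, 203 and 188 CPM in NK cells, 123, 170 and 168 CPM in CD8 T cells, 90.6, 153 and 137 CPM in CD4 T cells, 99.1, 123 and 119 CPM in B cells, and 16.9 and 16.7 CPM in aged and aged-GA neutrophils. Monocytes and NK cells overlapped, as did B and CD4 T cells, while neutrophils stood below all of them. The log2 change in neutrophils was -2.55 (SE 0.16, adjusted p = 2.8e-15), in monocytes 0.93 and in CD8 T cells 0.76 (adjusted p = 4e-09). In CD8 T cells over CD4 T cells, Psmb10 was the 1 member that passed the test, with a log2 change of 0.46 (SE 0.10, adjusted p = 0.0073), where 7.13% of all genes rose and 7.59% fell.

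The catalytic subunits and their inducible partners did not move together between classes. Psmb10 held 62.2%, 70.1% and 69.5% of the UMIs of the pair Psmb10 and Psmb7 in young, aged and aged-GA B cells, 70.9%, 72.9% and 76.2% in CD8 T cells and 71.5%, 71.4% and 74.8% in NK cells, but 30.7% and 28.4% in aged and aged-GA neutrophils. Psmb7 itself passed no test in neutrophils, although its mean CPM was lowest there, at 40.2 CPM against 89.6 CPM in monocytes. Psmb10 differed more, at 16.8 against 208 CPM, so that the low share goes with the level of Psmb10. In the pair Psmb9 and Psmb6 neutrophils were at the other end. Psmb9 held 82.0% and 78.9% of that pair in aged and aged-GA neutrophils, against 47.4%, 60.3% and 58.2% in young, aged and aged-GA B cells and 44.8%, 50.3% and 52.3% in NK cells. In the 6-class fit Psmb6 fell in neutrophils by 1.34 on the log2 scale (SE 0.14, adjusted p = 6.1e-10, edgeR quasi-likelihood test). It had 34.3 and 42.2 CPM there against 144 and 138 CPM in B cells. Psmb9 was called higher in neutrophils on the scaling of that test (log2 change 0.34, adjusted p = 0.0033). In CPM, Psmb9 was lower in neutrophils than in B cells in the aged and the aged-GA library. For the pair Psmb8 and Psmb5, the inducible share was 79.2%, 77.8% and 81.4% in B cells, 81.0%, 77.4% and 81.4% in CD8 T cells and 69.8% and 73.6% in neutrophils. Plasma cells had lower inducible shares of Psmb8 and Psmb9 than B cells, at 59.1% and 52.1% for Psmb8 and 40.0% and 30.5% for Psmb9 in aged and aged-GA mice. Shares of UMIs in transcripts do not give the makeup of assembled particles.

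**Figure D3:**
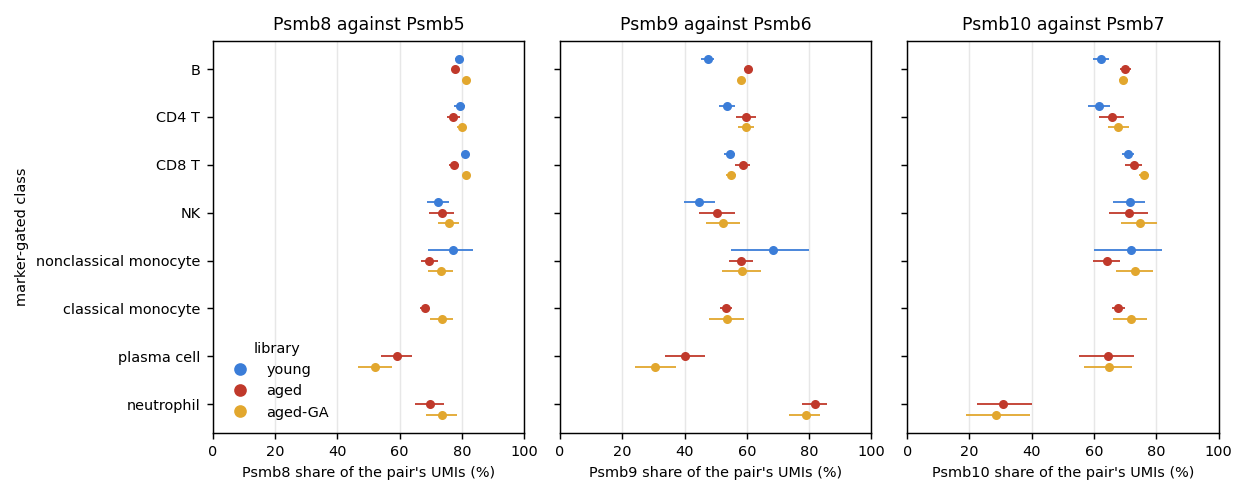
Share of the UMIs of each catalytic pair that comes from the inducible subunit (horizontal axis, %), by marker-gated class and library, for pairs with at least 20 UMIs, with 95% exact binomial intervals that cover counting error. Neutrophils lie at 30.7% and 28.4% for Psmb10 against Psmb7 and at 82.0% and 78.9% for Psmb9 against Psmb6, apart from the lymphocytes in opposite directions.

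In erythroid cells, most of which had lost nearly all transcripts but those of haemoglobin, Psmd4 and Psmd8 were called higher in the test. With 5 classes, 2 members rose and 6 fell in erythroid cells, where 9.46% of all genes rose and 6.74% fell. Psmd4, which binds ubiquitin chains and also exists free of the proteasome, had 181, 30 and 201 UMIs in young, aged and aged-GA erythroid cells. Over the total without the 4 gene groups this was 698, 273 and 424 CPM, against 181, 139 and 162 CPM in B cells, so that all erythroid libraries lay above all B-cell libraries. Its log2 change was 3.18 (SE 0.26, adjusted p = 3.1e-08). Psmd8 was called higher too (1.14), on the scaling of the test. It had 45, 15 and 51 UMIs in young, aged and aged-GA erythroid cells, or 11.1, 8.98 and 6.76 CPM. B cells had 144 and 134 CPM of Psmd8 in young and aged mice. Over the total without the 4 gene groups Psmd8 was also below B cells in each library. On the log2 scale Psmd7 fell by 2.15, Psmd13 by 1.21, Psmb5 by 1.20, Psmb3 by 0.77, and Psmb1 and Psmb6 by 0.67. The 20S share of core UMIs was 31.2% in young erythroid cells, 65.7% in aged and 54.3% in aged-GA cells. Of the 13 listed genes of ubiquitin supply and shuttling 4 rose and 1 fell in erythroid cells, and of the 14 listed regulators and assembly factors 4 rose and 2 fell. Ubb, a polyubiquitin gene, rose with a log2 change of 5.26, and Psme3, the nuclear proteasome activator PA28γ, with 6.35. Cells with at least 500 genes numbered 3, 11 and 11, and in them Psmd4 was at -0.43 (adjusted p = 0.62) and Psmd8 at -0.36. The count of called members was 4 without the young, 3 without the aged and 3 without the aged-GA library.

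The comparison of aged with young mice asks how the members' levels differ with age within a class. All genes together shifted in this comparison, with a median log2 ratio (pseudocount of 1 CPM, for genes whose UMIs in the pair of libraries reached 100) of 0.26 in B cells, 0.34 in CD4 T cells and 0.30 in CD8 T cells. Ribosomal protein, mitochondrial, haemoglobin and immunoglobulin genes took 36.4% of the UMIs in aged against 39.2% in young B cells, 35.1% against 44.4% in CD4 T cells and 41.7% against 48.8% in CD8 T cells. With these 4 groups out of the total, the median of all genes was 0.21 in B, 0.13 in CD4 T and 0.13 in CD8 T cells. On the full total, the members' median lay below that of all genes in each of the 3 classes, at -0.03 in B, 0.27 in CD4 T and 0.21 in CD8 T cells. There 8, 14 and 12 of 35 members were above the median of all genes. With the 4 groups out of the total, the members' median was -0.096, 0.046 and 0.029, again below that of all genes. The core sum differed by a log2 ratio of -0.03 (interval -0.05 to -0.01) in B, 0.28 (0.24 to 0.31) in CD4 T and 0.17 (0.14 to 0.20) in CD8 T cells. Without the 4 gene groups in the total, it was -0.098, 0.053 and -0.015, smaller in both T-cell classes.

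In B cells no member of 35 passed 1.5-fold in either direction, where 21.4% of all genes were higher and 2.41% lower by that fold in aged mice. The highest ratios were those of Psmd3 (32.0 CPM in young and 44.9 in aged mice, log2 ratio 0.48), Psmc1 (27.4 and 38.1 CPM, 0.46) and Psmb5 (86.8 and 114 CPM, 0.38), and the lowest those of Psma5 (108 and 84.6 CPM, -0.35), Psmd4 (110 and 88.7 CPM, -0.30) and Psmb1 (326 and 265 CPM, -0.30). In CD4 T cells 5 members were higher by 1.5-fold and none lower (28.4% and 3.33% of all genes), a share below that of all genes. They were Psmd2 (36.0 and 62.4 CPM, 0.77), Psmb10 (90.6 and 153 CPM, 0.75), Psmb5 (89.4 and 151 CPM, 0.75), Psmc1 (26.6 and 42.0 CPM, 0.64) and Psma7 (168 and 258 CPM, 0.62). Without the 4 gene groups in the total none of the 5 passed the fold. The lowest ratio in CD4 T cells was that of the ATPase Psmc6, at 78.0 and 62.8 CPM (-0.31).

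In CD8 T cells 2 members were higher by 1.5-fold and none lower, where 24.1% of all genes were higher and 2.8% lower. Psmb5, the main target of proteasome inhibitor drugs, went from 89.3 CPM in young to 147 CPM in aged cells (log2 ratio 0.71, interval 0.57 to 0.86), and the chaperone Psmd5 had 12.7 and 20.3 CPM (0.64). Psmd4 was lowest, at 116 and 85.4 CPM (-0.44). Without the 4 gene groups in the total, Psmb5 was at 0.53 and Psmd5 at 0.47, neither past the fold, and Psmd4 was past it at -0.62. Aged CD8 T cells hold more memory and effector cells, and 529 of 768 aged against 402 of 1771 young cells had the effector chemokine Ccl5. Psmb5 was at 95.8 and 155 CPM in CD8 T cells with Ccl5 (0.69) and at 86.9 and 128 CPM in those without it (0.56), so that its ratio was similar in both. Psmd4 was at -0.43 and -0.47. In CD4 T cells without S100a4, a gene of memory T cells, Psmb5 was at 81.2 and 125 CPM (0.61), and in the cells with S100a4, 42 young and 179 aged, at 214 and 202 CPM (-0.08, interval -0.50 to 0.35).

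NK cells went the other way, with 6 of 30 members lower by 1.5-fold in aged mice and none higher, where 5.68% of all genes were lower and 7.95% higher. The median of the members was -0.24, against 0.01 over all genes. They were Psmc2 (105 CPM in young and 54.3 in aged mice, log2 ratio -0.94, interval -1.50 to -0.42), Psma1 (139 and 85.3 CPM, -0.69), Psmd13 and Psmd14 (both 96.0 and 59.5 CPM, -0.68), Psmc4 (120 and 77.6 CPM, -0.62) and Psmc5 (102 and 67.2 CPM, -0.59), and 3 of the 6 are ATPases. The NK core sum was at -0.26 (interval -0.33 to -0.20), and 26 of 30 members had a ratio below 0. Erythroid markers summed to 1288 CPM in young NK cells and 19812 CPM in aged ones. In monocytes, of which the young library held 46 cells, 6 of 35 members were higher and 3 lower by 1.5-fold (24% and 17.6% of all genes). In nonclassical monocytes, with 43 young and 399 aged cells, the core sum was 3753 and 3766 CPM (log2 ratio 0.0052, interval -0.10 to 0.11), against 0.28 over all monocytes.

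**Figure D4:**
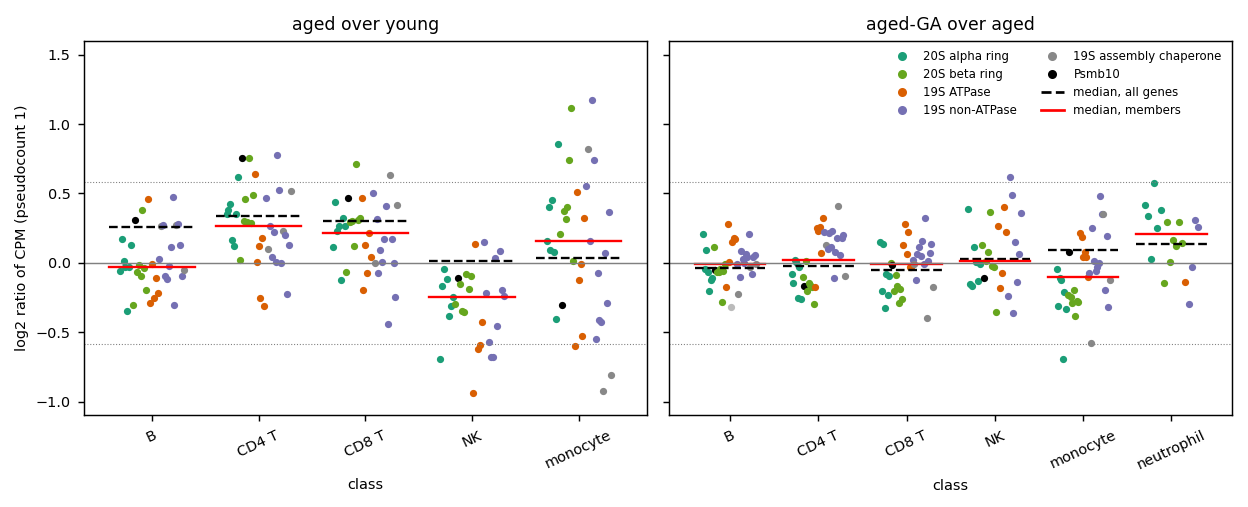
Log2 ratio of CPM (pseudocount 1 CPM) of each member that reached 100 UMIs in the pair of libraries, for aged over young (left) and aged-GA over aged (right), by class, with 1 library per group and no error between animals. The red line is the median of the members, the dashed line that of all genes, and the dotted lines mark 1.5-fold; in aged over young the members' median lies below that of all genes in B, CD4 T, CD8 T and NK cells, and in aged-GA over aged 1 point in NK cells (0.61) and 1 in monocytes (-0.69) lie outside the dotted lines.

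The comparison of aged-GA with aged mice shares the aged library with the comparison by age, and the values are given side by side only. No member passed 1.5-fold in B cells (0.692% of all genes higher and 1.06% lower), CD4 T cells (1.38% and 1.36%), CD8 T cells (1.12% and 2.2%) or neutrophils (6.04% and 1.1%). The median log2 ratio of the members was -0.01 in B, 0.02 in CD4 T and -0.01 in CD8 T cells, and that of all genes -0.04, -0.03 and -0.05. Psmb5 was at 114 CPM in aged and 93.5 in aged-GA B cells, at 151 and 135 CPM in CD4 T cells and at 147 and 119 CPM in CD8 T cells, and in each of these classes the young library was lowest. In NK cells Psmd13 was the 1 member past the fold, at 59.5 and 91.6 CPM (log2 ratio 0.61, interval 0.08 to 1.18), where 2.38% of all genes were higher. The core sum differed by 0.01 in B, -0.03 in CD4 T, -0.05 (interval -0.07 to -0.02) in CD8 T and 0.05 in NK cells. Without the 4 gene groups the CD8 T value was 0.0035.

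Within the particle, the sums of the 20S genes and of the regulatory particle had opposite signs in T cells, aged-GA over aged. In CD4 T cells the α-ring sum was at -0.10 and the β-ring sum at -0.14, while the ATPases were at 0.18 and the non-ATPase genes at 0.14. In CD8 T cells the values were -0.08, -0.13, 0.09 and 0.09. The 20S share of core UMIs in CD4 T cells was 66.7%, 70.1% and 65.9% in young, aged and aged-GA mice and in CD8 T cells 67.5%, 70.6% and 67.7%, so that the aged library was the highest in both. The aged library was also the highest in NK cells (65.8%, 67.2% and 65.3%, with overlapping intervals) and monocytes (65.9%, 71.1% and 66.8%), while in B cells the shares were 66.6%, 66.3% and 65.0%. These shares are ratios within a library and do not depend on its total.

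In monocytes the core sum was lower in aged-GA mice, at 4137 CPM against 4681 CPM in aged mice (log2 ratio -0.18, interval -0.21 to -0.14), and Psma5 was the 1 member past 1.5-fold, at 105 against 170 CPM (-0.69, interval -0.92 to -0.47), where 5.03% of all genes were lower and 7.88% higher. Classical monocytes made up 624 of 1045 aged and 95 of 276 aged-GA monocytes. Within classical monocytes the core sums were 4953 and 4653 CPM (-0.09) and Psma5 was at 188 and 125 CPM (-0.58), and within nonclassical monocytes they were 3766 and 3586 CPM (-0.07) and Psma5 was at 110 and 79.9 CPM (-0.46, interval -0.88 to -0.06). The neutrophil sum was 1285 CPM in the aged library and 1471 CPM with GA (0.19, interval 0.11 to 0.28). With the 4 gene groups and the neutrophil markers out of the total, the ratio was 0.070. Plasma cells had 2 of 17 members lower by 1.5-fold (7.84% of all genes), Psma5 and Psma4, from 33 and 32 cells, and none higher (3.43%).

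The genes around the particle were taken from lists of regulators and assembly factors (14 genes measured), the inducible partners Psmb8 and Psmb9, and genes of ubiquitin supply and shuttling (13 genes). In neutrophils 11 of the 14 regulators fell and 3 rose, where 36.8% of all genes fell and 30.9% rose. The interferon-inducible PA28 activator fell with the core, Psme1 by 1.05 and Psme2 by 0.98 on the log2 scale, and Pomp, the maturation factor of the 20S particle, by 0.49. Sem1, a small acidic subunit of the lid that also serves other complexes, rose (log2 change 1.92, SE 0.08, adjusted p = 7.8e-21), with 1470 and 1210 CPM against 411 and 347 CPM in B cells. Of the 13 genes of ubiquitin supply and shuttling, 3 rose and 6 fell in neutrophils, with a median log2 change of -0.37 against -0.30 over all genes, and Ubb rose with 0.96. In monocytes, where 34.9% of all genes rose and 23.7% fell, 6 of the 14 regulators rose and 2 fell, and those that rose included Pomp with 1.19. Of the 13 ubiquitin genes, 2 rose and 2 fell there. Ddi2 of that list, the protease that activates the proteasome regulator NRF1, rose with 1.57, while Nfe2l1, which encodes NRF1, did not pass the test (0.25, adjusted p = 0.11).

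Between aged and young mice, Pomp was at 135 against 90.2 CPM in B cells (log2 ratio 0.57) and 240 against 122 CPM in CD4 T cells (0.96). In CD8 T cells it was at 202 against 123 CPM (0.71), and it lay above the median of all genes in each class. Of the CD4 T cells, 42 young and 179 aged ones had S100a4. Pomp was at 0.79 in CD4 T cells without S100a4 and at 0.28 (interval -0.08 to 0.65) in those with it. Psmb9 was at 219 against 133 CPM in B cells (0.71), 240 against 153 CPM in CD4 T cells (0.65) and 217 against 147 CPM in CD8 T cells (0.56). The inducible share of the pair Psmb9 and Psmb6 was 60.3% in aged against 47.4% in young B cells, 59.8% against 53.6% in CD4 T cells and 58.7% against 54.5% in CD8 T cells. In monocytes it was lower in aged mice, at 54.3% against 68.8% from 64 UMIs in the young library. Of the 46 young monocytes 43 were nonclassical, while 624 of 1045 aged ones were classical. Within nonclassical monocytes Psmb9 and Psmb6 had 39 and 18 UMIs in young and 356 and 256 in aged mice. The share was again lower there in aged mice, by a smaller margin and from few young UMIs. The intervals of the aged-over-young log2 ratio ran from -0.45 to 0.55 for Psmb9 and from -0.016 to 1.45 for Psmb6, so that neither gene had a clear direction.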

How the data were processed

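Libraries of PBMCs, 1 per group, were made with the 10x 3′ version 3 kit. The authors mapped the reads to mm10 with Cell Ranger (5.0.0 in the file headers) and deposited raw UMI counts per gene and barcode, without normalization; the study names several mice per group, and how their cells were combined is not given in the sources used here. From the counts, cells with at least 200 genes, up to 90% of the gene number of the richest cell, and a mitochondrial share of 7.5% or less were kept, as in the study. Doublets (Scrublet in scanpy 1.11.5, score above 0.2, 4.4% to 5.3% of cells) were kept in the main analysis and left out in an alternative. Cells were gated by fixed markers, needing 3 of 6 for T, NK and B cells, 4 of 10 for monocytes, 4 of 9 for neutrophils, 4 of 6 for plasma cells and 6 of 8 for erythroid cells; these numbers were set after the data were seen. The members, the gene lists and the rule for named genes (all members, the listed pathway genes and the markers) were chosen with earlier results of these data known.

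Class differences were tested on UMI sums with edgeR 4.0.16 (TMM, filterByExpr, quasi-likelihood, library as a block, Benjamini-Hochberg, adjusted p under 0.05). On simulated data for NK cells (10403 genes, 200 changed 2-fold), 82.5% of changes were recovered and 5.71% of calls were false. Smaller changes, such as those of Psmc3 and Psmd1 in NK cells, were not simulated, so that their recovery is not known. Between groups, log2 ratios of CPM with a pseudocount of 1 CPM were computed for genes with at least 100 UMIs, and 1.5-fold counted as past the fold. Levels carry exact Poisson and ratios exact binomial intervals. Alternatives changed normalization, test (DESeq2 1.42.0), filters, libraries, block, doublets, gate, pseudocount, denominator and minimum of UMIs. Positions are those of GENCODE vM21. Clustering, pseudotime and the culture experiments of the study were not used here.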

Additional observations from a re-analysis of the deposited data

Results flagged for a closer look

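The direction of the core sum was picked out because 1 class moved one way and another the opposite way. Aged over young, the log2 ratio of the core sum was 0.28 in CD4 T cells, 0.17 in CD8 T cells and 0.28 in monocytes, but -0.033 in B cells and -0.26 in NK cells. Aged-GA over aged, it was 0.19 in neutrophils, but -0.047 in CD8 T cells and -0.18 in monocytes. These differences between classes were not tested, since each group holds 1 library. The values of CD8 T cells turned when 4 gene groups were left out of the total, and the aged-over-young value of CD4 T cells was smaller. The neutrophil value was 0.070 with the neutrophil markers out of the total as well. The young monocytes were 46 cells, of which 43 were nonclassical, and within nonclassical monocytes the ratio of aged over young was 0.0052. Aged-GA over aged it was -0.09 within classical and -0.07 within nonclassical monocytes.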

How the results depend on the processing

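The number of members called in a class depended on the alternatives more than the single values did. Of the values of single members in the class test, 251 kept their direction and their side of the threshold, 107 lost the call and 6 turned: Psmd7 without the erythroid class (-0.029 in B, -0.086 in CD4 T and -0.056 in NK cells) and, with at least 500 genes per cell, Psmd4 (0.11 in CD8 T and -0.43 in erythroid cells) and Psmd8 (-0.36 in erythroid cells). Members called were 11 in B and 1 in CD4 T cells by the DESeq2 Wald test, 1 in CD4 T cells with DESeq2 size factors, 4 in CD4 T and 9 in CD8 T cells with at least 500 genes, 1 in CD4 T cells without doublets, 13 in erythroid cells with a stricter gate, and 19 in B and 3 in CD8 T cells without the erythroid class. Without the library block they were 3 in B, 1 in CD4 T, 1 in CD8 T and 6 in NK cells. Leaving out 1 library gave 0 to 13 in B, 0 to 4 in CD4 T, 0 to 12 in CD8 T, 4 to 8 in NK and 3 to 4 in erythroid cells. With 6 classes, 8 were called in CD8 T cells by DESeq2 and 8 without the block, and 5 in NK cells without a filter on counts and 4 with a stricter gate; the counts in monocytes and neutrophils stayed within 1.5 times of 25 and 29 in all 8 alternatives run. With 4 gene groups out of the total, the core sum of aged over young was -0.098 in B, 0.053 in CD4 T and -0.015 in CD8 T cells, that of aged-GA over aged in CD8 T cells 0.0035, and the members past 1.5-fold were 0 in CD4 T and 1 in CD8 T cells, aged over young, and 2 in monocytes, aged-GA over aged. With a pseudocount of 10 CPM 1 was past the fold in CD8 T cells, aged over young, and 0 in NK cells, aged-GA over aged. Aged-GA over aged, it was 2 in NK and 4 in neutrophils with a minimum of 20 UMIs, 2 in monocytes with no mitochondrial limit or a pseudocount of 0.1 CPM, and 1 in neutrophils with at least 500 genes or that pseudocount. With the neutrophil markers out of the total too, an alternative chosen after seeing the data, the core sum of aged-GA over aged neutrophils was at 0.070. The cause of these changes was not tested. The shares of catalytic pairs moved by less than their intervals in all 100 values recomputed. No paired analysis was possible because each group holds 1 library, and no library could be left out of a comparison between groups.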
